A study of Mus musculus with 23 samples.

Results

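The genes described here were 10 imprinted genes of prenatal growth, Mest, Igf2, H19, Dlk1, Meg3, Peg3, Plagl1, Grb10, Cdkn1c and Ndn, of the 27466 genes in the count table of mouse testes and cultured testis explants. They were chosen by name, with Mest as the leading gene because its level in vivo was lower after 10.5 days postpartum (dpp) and differed from that in culture. The values that led to this choice are therefore given as a description, with no test. All 10 passed the filter on low counts, as did 19255 genes in all.

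Testes were from wild-type CD-1 mice, an outbred stock. The in vivo groups were 6.5 dpp, either fresh or stored by controlled slow freezing (CSF), then 10.5 dpp, then 22.5 dpp, and last 36.5 dpp. Explants of 6.5 dpp testes were grown for 4 days (D4), 16 days (D16) or 30 days (D30) in α-MEM with KnockOut serum replacement and retinol, which brought each set to the age of one of the 3 older in vivo groups, and some D30 explants had been frozen by CSF before culture. Each culture library was a pool of explants whose necrotic centre had been cut away, so it stands for the viable rim of the tissue. The 6.5 dpp group had 4 libraries (1 fresh, 3 CSF), the 10.5 and 22.5 dpp groups 3 each and the 36.5 dpp group 2. In culture, D4 had 3 libraries, D16 had 2 and D30 had 4 (3 fresh, 1 CSF). Totals were 28351546 to 69029328 counts.

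A pair of deposited columns was left out. The library labelled 6.5 dpp fresh replicate 3 equalled replicate 2 in every gene and was counted once with it. The library labelled 6.5 dpp fresh replicate 1 stood apart from its group: its rank correlation over genes was 0.981 with the first D16 library and 0.846 with fresh replicate 2, and it held Mest at 53.5, H19 at 64.1 and Dlk1 at 1.31 CPM (read counts scaled to a common library total). With it kept in the fit, the number of the 9 genes other than Mest called from 6.5 dpp to D4 went from 5 to 0, and at D16 against 22.5 dpp from 4 to 1. Among the libraries kept, 6.5 dpp CSF replicate 3 held fewer long transcripts than its group. Its median log2 deviation of transcripts over 5000 nt minus that of transcripts under 1500 nt was -1.95. This contrast was -0.94 and 0.94 in the D16 libraries and -1.02 and 1.02 in the 36.5 dpp libraries. In these groups of 2, each library was set against the other, so the values do not show which library deviates.

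Imprinted genes are read from one parental copy, because the other carries DNA methylation or silent chromatin set in the parent's germ line. Many of them control growth before birth: genes read from the father's copy, such as Igf2, tend to promote it, and genes read from the mother's copy, such as Cdkn1c and Grb10, tend to restrain it. After birth a network of these genes is switched down in many organs as growth slows. In the testis the somatic cells keep the parental imprints, whereas male germ cells have erased them and set the paternal pattern anew. The counts do not tell the parental copies apart.

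RefSeq promoter windows (GRCm38.p6, 250 bases before to 50 after a transcript start) were at hand for 8 of the 10 genes. Of these, 4 are printed as examples, all of genes read from the father's copy: Mest as the leading gene, Dlk1 for its contrast to Mest in culture, and Plagl1 and Peg3 for the motif described after them. Capitals mark each CpG, the dinucleotide at which imprints are methylated. Mest at chr6:30737803-30738102 (plus strand) held 17 CpG, and 68.6% of the 32851 windows in the table held fewer. Plagl1 at chr10:13090582-13090881 (plus strand) held 26 CpG, Peg3 at chr7:6730370-6730669 (minus strand) 13 and Dlk1 at chr12:109452573-109452872 (plus strand) 9.
Mest: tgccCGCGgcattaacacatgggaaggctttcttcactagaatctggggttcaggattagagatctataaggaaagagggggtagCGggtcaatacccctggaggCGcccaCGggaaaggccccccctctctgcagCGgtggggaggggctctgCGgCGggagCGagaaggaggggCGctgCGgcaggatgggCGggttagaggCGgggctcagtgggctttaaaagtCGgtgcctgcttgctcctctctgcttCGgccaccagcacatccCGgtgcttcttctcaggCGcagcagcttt
Plagl1: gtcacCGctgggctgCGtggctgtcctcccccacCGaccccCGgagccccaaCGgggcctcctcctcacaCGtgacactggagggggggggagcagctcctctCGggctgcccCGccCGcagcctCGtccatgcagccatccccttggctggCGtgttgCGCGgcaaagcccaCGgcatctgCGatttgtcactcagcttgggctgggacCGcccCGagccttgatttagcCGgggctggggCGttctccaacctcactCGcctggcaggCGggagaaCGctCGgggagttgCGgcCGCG
Peg3: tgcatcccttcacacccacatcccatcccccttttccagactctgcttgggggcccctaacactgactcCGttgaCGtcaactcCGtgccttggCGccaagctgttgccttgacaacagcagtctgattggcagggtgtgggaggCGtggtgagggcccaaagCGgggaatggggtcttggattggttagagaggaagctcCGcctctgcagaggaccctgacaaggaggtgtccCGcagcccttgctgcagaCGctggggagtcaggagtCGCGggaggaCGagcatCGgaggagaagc
Dlk1: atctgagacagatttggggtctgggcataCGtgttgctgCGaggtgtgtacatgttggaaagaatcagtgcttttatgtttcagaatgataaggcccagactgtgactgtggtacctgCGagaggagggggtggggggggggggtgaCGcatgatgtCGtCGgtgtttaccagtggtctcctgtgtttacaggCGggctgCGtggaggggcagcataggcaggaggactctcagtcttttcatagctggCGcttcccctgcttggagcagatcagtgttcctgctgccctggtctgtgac
The palindrome GGGGCCCC, known as a binding motif of the Plagl1 protein, was searched on both strands, which read the same. It was in 1 of the 15 windows of these genes, that of Peg3, and in 1.08% of all windows.

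Mest encodes a membrane protein of the alpha/beta hydrolase fold and lies at chr6:30733506-30748466. In vivo its level was 71.0, 88.3, 133 and 109 CPM at 6.5 dpp and 60.4, 59.5 and 61.2 CPM at 10.5 dpp. It was 3.33, 5.55 and 2.88 CPM at 22.5 dpp and 1.90 CPM in both 36.5 dpp libraries. The 4 ages did not overlap, and the mean at 22.5 dpp was 6.49% of that at 10.5 dpp.

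Cultured explants held Mest near the level of the 10.5 dpp testis throughout. Mest was 58.4, 61.0 and 57.7 CPM at D4, 68 and 58.5 CPM at D16, and 46.6, 51.7, 55.2 and 65.5 CPM at D30. The D16 libraries were thus all above the 22.5 dpp libraries, by a fitted log2 fold change of 3.87, and the D30 libraries above those of 36.5 dpp, by 4.20. Both are descriptions, since they compare with the in vivo values that chose the gene. The fitted log2 value was -0.75 from 6.5 dpp to D4, 0.15 from D4 to D16 and -0.19 from D16 to D30, and the second was 0.72 with libraries scaled on 12 somatic genes, described below. Mest was not tested over the time in culture either, since its level there was also known when it was chosen.

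**Figure D1:**
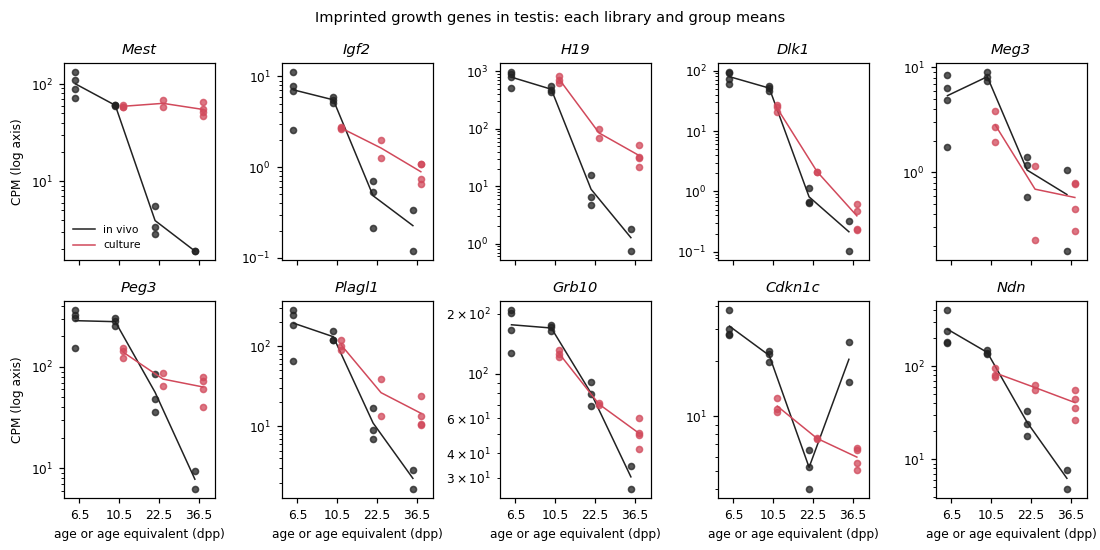
CPM on a log axis for the 10 imprinted genes against age in vivo (black) or the matched age in culture (red), with ages evenly spaced; points are libraries and lines join group means. Mest averaged 60.4 CPM at 10.5 dpp and 3.92 CPM at 22.5 dpp in vivo, and 54.7 to 63.2 CPM in culture, where H19 and Dlk1 fell.

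The gene next to Mest had other levels. Copg2, a coatomer gene that overlaps the 3' end of Mest on the other strand, averaged 161 CPM at 10.5 dpp, 221 CPM at 22.5 dpp and 97.7 CPM at 36.5 dpp, against 166, 186 and 166 CPM at D4, D16 and D30. It was lower at D16 than at 22.5 dpp by a log2 fold change of -0.41 (SE 0.14, adjusted p = 0.0443, edgeR). The strand setting of the counting was not given in the sources used here, so how reads of the overlap were counted is not known.

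The genes most like Mest over the 21 libraries, by Pearson correlation of log2 CPM, were Eda2r (r = 0.968), Mro (0.966), Rhoc (0.964), Stc1 and Slc24a5 (both 0.962), Cnn3 (0.96), and Nfe2l2, Ocln, Rpp25 and Rasgef1c (all 0.959). The libraries fall into 7 stages and are not independent points, so these values are a description. Mro averaged 260 CPM at 10.5 dpp and 57.6 CPM at 22.5 dpp, but 198 CPM at D16. Ocln, which encodes the tight junction protein occludin, averaged 98.2 CPM at 10.5 dpp, 21.4 CPM at 22.5 dpp and 99.9 CPM at D16. None of the other 9 imprinted genes was among these 10, and their own correlations with Mest ran from 0.131 to 0.84.

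H19 and Igf2 are neighbours that share enhancers, H19 as a noncoding RNA of the mother's copy and Igf2 as the father's insulin-like growth factor. H19 was the most abundant of the 10 genes per kilobase of exon at 6.5 dpp, at 348 CPM per kb, against 36.1 for Mest and 1.35 for Igf2. In vivo H19 ranged from 506 to 978 CPM at 6.5 dpp and was 477, 551 and 443 CPM at 10.5 dpp, 4.70, 15.4 and 6.45 CPM at 22.5 dpp, and 0.743 and 1.80 CPM at 36.5 dpp. In culture it was 635, 719 and 837 CPM at D4, then 68.6 and 101 CPM at D16. The D30 libraries held 32.9, 21.3, 52.2 and 31.7 CPM. H19 thus fell in culture too, but at each culture stage every library lay above every in vivo library of its age.

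Between D4 and D16 H19 fell by 3.06 on the log2 scale (SE 0.46, adjusted p = 5.7e-05, edgeR). It was nevertheless higher at D16 than at 22.5 dpp, by a log2 fold change of 3.14 (SE 0.41, adjusted p = 5.45e-05), and higher at D30 than at 36.5 dpp, by 4.09 (SE 0.49, adjusted p = 2.38e-06). Igf2 was low throughout, with 2.57 to 11.2 CPM at 6.5 dpp and 5.12 to 5.88 CPM at 10.5 dpp. Igf2 is overlapped by Gm49394 on the same strand and by Igf2os on the other. How reads of these overlaps were counted is not known, which limits its level and its ratio to H19. The Igf2 values in the later groups were lower. The D4 libraries held 2.61 to 2.78 CPM, those of D16 1.26 and 1.99 CPM, and those of D30 0.653 to 1.09 CPM. At 22.5 dpp it was 0.211, 0.702 and 0.537 CPM, from 8 to 32 reads. Its log2 fold change was 1.60 (SE 0.48, adjusted p = 0.0237) at D16 against 22.5 dpp and 1.30 (SE 0.55, adjusted p = 0.0435) at D30 against 36.5 dpp, where the in vivo libraries held 4 and 13 reads. The second value had the other sign, -0.41, when libraries were scaled on somatic genes, as described with that comparison below. The mean ratio of H19 to Igf2 counts was 272 at D4, 52.8 at D16 and 39 at D30.

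Dlk1, the father's gene for a transmembrane relative of the Notch ligands, and Meg3, the mother's noncoding RNA, lie together on chromosome 12. Dlk1 was 60.2, 71.9, 94.9 and 90.9 CPM at 6.5 dpp and 46.4, 56.5 and 51.2 CPM at 10.5 dpp. It then measured 0.634, 1.14 and 0.664 CPM at 22.5 dpp and 0.327 and 0.103 CPM at 36.5 dpp, the last from 4 reads. Unlike Mest, Dlk1 fell at every step of culture: it was 20.3, 24.6 and 26.6 CPM at D4, 2.14 and 2.12 CPM at D16, and 0.241, 0.228, 0.479 and 0.628 CPM at D30. No libraries of successive culture stages overlapped. A fall at every step was not particular to Dlk1: all 9 genes other than Mest had negative fitted changes there, though not all were called.

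The log2 fold changes of Dlk1 were -1.73 from 6.5 dpp to D4 (SE 0.28, adjusted p = 0.000293, edgeR), -3.43 from D4 to D16 (SE 0.38, adjusted p = 1.9e-06) and -2.41 from D16 to D30 (SE 0.34, adjusted p = 0.00297). Dlk1 was higher at D16 than at 22.5 dpp by 1.24 (SE 0.35, adjusted p = 0.0184). Meg3 gave few reads, with a range of 1.76 to 8.53 CPM at 6.5 dpp and of 7.36 to 9.04 CPM at 10.5 dpp. The D4 range was 1.97 to 3.82 CPM. It was 0.226 and 1.16 CPM at D16, the first from 9 reads, and it was not called in any comparison on the usual scale. Its log2 fold change from D4 to D16, -1.98, had an adjusted p of 0.0516 and was called in 7 of 30 alternatives. Mirg, a noncoding RNA of the same cluster, was lower at D4 than at 10.5 dpp by 1.35 on the log2 scale (adjusted p = 0.0203) and fell by 1.60 from D4 to D16 (adjusted p = 0.00912).

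Peg3, Plagl1 and Ndn are nuclear regulators read from the father's copy. Plagl1 encodes a zinc finger protein that binds several other imprinted genes, Peg3 a large zinc finger protein and Ndn necdin, which restrains proliferation. Peg3 was 302, 251 and 286 CPM at 10.5 dpp, 48.1, 85.0 and 35.6 CPM at 22.5 dpp, and 6.24 and 9.36 CPM at 36.5 dpp. In culture it was 153, 143 and 124 CPM at D4, 65.5 and 86.4 CPM at D16, and 73.3, 60.8, 80.0 and 39.9 CPM at D30. Peg3 in culture thus overlapped the 22.5 dpp testis at D16 and lay above the 36.5 dpp testis at D30.

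Plagl1 was 155, 120 and 119 CPM at 10.5 dpp and 7.02 to 17.1 CPM at 22.5 dpp, against 121, 100 and 89.6 CPM at D4, 13.6 and 39.2 CPM at D16, and 10.4 to 24.0 CPM at D30. It fell from D4 to D16 by 1.93 on the log2 scale (SE 0.53, adjusted p = 0.0118, edgeR). Without the first D16 library, which held fewer long transcripts than the second, that change was -1.38 and no longer called. Ndn was 138, 149 and 134 CPM at 10.5 dpp, 17.8 to 33.4 CPM at 22.5 dpp and 7.72 and 4.81 CPM at 36.5 dpp. It was 76.3, 81.1 and 96.2 CPM at D4, 62.2 and 55.6 CPM at D16, and 26.5 to 55.9 CPM at D30, so from D16 on all culture libraries were above those of the same age in vivo. In 6.5 dpp CSF replicate 3, Peg3, Plagl1, Igf2, Meg3, H19 and Grb10 were the lowest of the 4 libraries of that age, at 152, 64.5, 2.57, 1.76, 506 and 127 CPM, and Ndn was the highest, at 400 CPM. The part of its shortage of long transcripts in these values was not tested.

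Grb10 and Cdkn1c restrain growth, Grb10 as an adaptor that dampens insulin and insulin-like growth factor receptors and Cdkn1c as the cyclin-dependent kinase inhibitor p57. Grb10 had the smallest difference between 10.5 and 22.5 dpp of the 10 genes. It was 175, 172 and 163 CPM at 10.5 dpp, then 79.2, 91.3 and 69.3 CPM at 22.5 dpp, and 26.4 and 34.4 CPM at 36.5 dpp. In culture it was 121 to 132 CPM at D4, 71.0 and 69.8 CPM at D16, and 42.0 to 59.7 CPM at D30. From D4 to D16 it fell by 0.79 on the log2 scale (SE 0.20, adjusted p = 0.0063, edgeR). This call was lost without D16 replicate 1 (adjusted p = 0.0666) and on somatic scaling, where the change was -0.23 (adjusted p = 0.511).

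Cdkn1c was the only one of the 10 genes that was higher at 36.5 than at 22.5 dpp in every library. It was 21.8, 22.8 and 19.9 CPM at 10.5 dpp, 3.99, 6.49 and 5.25 CPM at 22.5 dpp, and 25.6 and 15.4 CPM at 36.5 dpp. The explants had no such difference, with 10.5, 11 and 12.6 CPM at D4, 7.57 and 7.54 CPM at D16, and 5.55, 6.56, 6.68 and 5.07 CPM at D30. Beside it, the summed level of 5 spermatid markers (Prm1, Prm2, Tnp1, Tnp2 and Acrv1) was 9.10 to 60.0 CPM at 22.5 dpp, 16420 to 21330 CPM at 36.5 dpp, and 346 to 1635 CPM at D30. Their part in the Cdkn1c values was not tested. The genes most like Cdkn1c over the 21 libraries were Nemp2 (r = 0.959), Pde9a (0.955) and Abcg2 (0.952).

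Across the ages in vivo, 4 of the 10 genes were lower at 10.5 dpp than at 6.5 dpp with no overlap between libraries (6.74% of all genes were, and 12.2% were higher), and 8 without 6.5 dpp CSF replicate 3. All 10 were lower at 22.5 than at 10.5 dpp (45.2% of all genes, and 33.3% were higher), and 7 were lower at 36.5 than at 22.5 dpp (52.1% of all genes) while Cdkn1c was higher (21.7% of all genes). The genes were chosen with this pattern known, so these counts support nothing. The geometric mean of 12 somatic reference genes, among them Vim, Gata4 and Sox9, was lower with age as well: it ranged over 254 to 274 CPM at 10.5 dpp, 77.6 to 121 CPM at 22.5 dpp, and 33.0 to 35.3 CPM at 36.5 dpp. The 12 genes did not move as one: Cyp11a1, an enzyme of Leydig cells, averaged 204 CPM at 10.5 dpp, 287 at 22.5 dpp and 426 at 36.5 dpp, and was lower in culture by -2.58 at D16 and -3.04 at D30 on the log2 scale, where Vim was higher by 1.30 and 2.64. In whole tissue, fewer cells of a type and less RNA per cell cannot be told apart.

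Relative to these somatic genes, Mest at 22.5 dpp was 18.1% of its 10.5 dpp value, H19 4.83%, Dlk1 4.44%, Plagl1 23.0% and Igf2 24.3%. Meg3 was at 37.5%, Ndn at 50.5%, Peg3 at 55.2%, Cdkn1c at 69.9% and Grb10 at 137%. In culture the somatic genes were at 229 to 270 CPM at D4, 153 and 180 CPM at D16, and 149 to 229 CPM at D30. Mest relative to them was 165% of its D4 value at D16 and 135% at D30, whereas H19 was at 17.6% and 6.68% and Dlk1 at 13.8% and 2.34%. Meg3 was at 35.5% and 29.5%, and Plagl1 at 37.1% and 19.5%. The remaining genes were nearer their D4 value at D16: Ndn at 108%, Cdkn1c 102%, Igf2 90.3%, Grb10 85.2% and Peg3 81.7%. At D30 these were at 69.3%, 77.0%, 48.0%, 59.1% and 65.8%.

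Culture against the age-matched testis was compared to find which of the 9 genes other than Mest departed from the course in vivo. The in vivo levels were known when the genes were chosen. Counts of calls at D4, D16 and D30 therefore support nothing about the genes as a set. At D4 Dlk1 and Cdkn1c were lower than at 10.5 dpp and no gene was higher. The log2 fold change was -1.02 for Dlk1 (SE 0.29, adjusted p = 0.0362, edgeR) and -0.84 for Cdkn1c (SE 0.20, adjusted p = 0.0132). These were 2 of 9 genes, against 3.18% of all genes called lower and 4.92% higher, and the median log2 fold change was -0.84 over the 9 genes and -0.01 over all genes. Leaving out any single D4 or 10.5 dpp library took the count to 0 or 1, and it was 3 without 6.5 dpp CSF replicate 3. A fit of these 2 groups alone called 8 of 9 genes, 7 lower and only H19 higher, by 0.67 (adjusted p = 0.00113). The Dlk1 call was lost without any of the 6 D4 and 10.5 dpp libraries, with adjusted p up to 0.161, and the Cdkn1c call without replicate 1 or 2 of D4 or of 10.5 dpp, with adjusted p up to 0.0662.

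At D16, H19, Igf2, Dlk1 and Ndn were higher than at 22.5 dpp. They were 4 of 9 genes, against 14.0% of all genes called higher and 11.8% lower, and the median log2 fold change was 1.10 over the 9 genes and -0.08 over all genes. The low levels at 22.5 dpp were known when the genes were chosen, so this count supports nothing about them as a set. Ndn had a log2 fold change of 1.10 (SE 0.35, adjusted p = 0.0282, edgeR). H19 alone was called in a fit of these 2 groups and without 22.5 dpp replicate 1, 22.5 dpp replicate 3 or D16 replicate 2. Without those libraries the adjusted p was up to 0.101 for Dlk1, 0.229 for Igf2 and 0.112 for Ndn, which was also lost without D16 replicate 1. Cdkn1c, at 0.38 (95% interval -0.09 to 0.85), Peg3, at 0.30 (-0.40 to 1.00), Grb10, at -0.33 (-0.75 to 0.08), and Meg3, at -0.74 (-2.22 to 0.73), were not called. Plagl1 was not called either, at 1.11 (0.08 to 2.15, adjusted p = 0.0999, edgeR), though its value was near that of Ndn. It was called in 3 of 30 alternatives.

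At D30, H19, Igf2, Peg3, Plagl1 and Ndn were higher than at 36.5 dpp and Cdkn1c was lower. They were 5 and 1 of 9 genes, against 32.4% of all genes called higher and 35.0% called lower. The levels at 36.5 dpp were also known when the genes were chosen, so these counts support nothing about them as a set. The log2 fold change was 2.38 for Peg3 (SE 0.36, adjusted p = 2.56e-05, edgeR), 2.06 for Ndn (SE 0.37, adjusted p = 0.000126) and 2.03 for Plagl1 (SE 0.54, adjusted p = 0.00293). Cdkn1c was lower by a log2 fold change of -2.41 (SE 0.20, adjusted p = 7.88e-08). Plagl1 was lost without 36.5 dpp replicate 1 (adjusted p = 0.0513), and Igf2 without any of 11 libraries, namely 6.5 dpp fresh 2 and CSF 2, each of the 10.5 dpp and D4 libraries, 36.5 dpp replicate 1, and D30 fresh 1 and 3, with adjusted p up to 0.342. Igf2 was also lost with RLE factors (1.04, adjusted p = 0.092) and with DESeq2 (1.05, adjusted p = 0.084), and in all it was called in 15 of 30 alternatives.

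Scaling on the 12 somatic genes lowered the median log2 fold change of all genes by 0.73 at D16 and by 1.69 at D30 against the matched testis. The share of calls that were higher then went from 54.3% to 9.13% at D16 and from 48% to 5.92% at D30, and it was 68% and 65.8% on library size alone. H19 kept its calls on somatic scaling, with log2 fold changes of 2.48 and 2.34, and so did Cdkn1c at D30, with -4.11. Mest had 3.20 and 2.50 on that scale. Peg3, Plagl1 and Ndn at D30 were not called there, with 0.67, 0.27 and 0.34 (adjusted p of 0.066, 0.595 and 0.366), nor were Igf2, Dlk1 and Ndn at D16. Dlk1 and Grb10, which were not called at D30 on the usual scale, with log2 fold changes of 0.26 (95% interval -0.71 to 1.23) and 0.09 (-0.30 to 0.48), turned to -1.46 (adjusted p = 0.005) and -1.60 (adjusted p = 8.21e-06). That scaling also called Meg3 lower at D30, by -2.50 (adjusted p = 0.0026), and Grb10 lower at D16, by -1.06 (adjusted p = 0.00585). On library size alone Grb10 was instead higher at D30, by 0.73 (adjusted p = 0.00393).

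**Figure D2:**
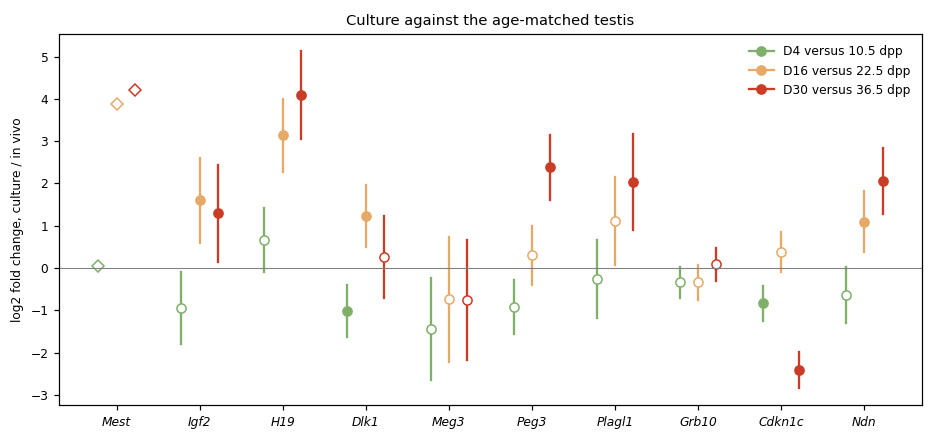
Fitted log2 fold change of culture over the age-matched testis for each gene at D4, D16 and D30; bars are 95% intervals, filled points have adjusted p under 0.05, and Mest (diamonds) is given without a test or interval. H19 rises from 0.66 to 4.09, and Cdkn1c ends at -2.41.

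Whether the effect of culture itself changed with time was tested as a difference of these effects. Each difference also holds the change in vivo between the matched ages, which was known when the genes were chosen. The counts of calls below therefore support nothing about the genes as a set. From D4 to D16 it rose for H19, by 2.48 (SE 0.54, adjusted p = 0.00933, edgeR), for Igf2, by 2.54 (SE 0.63, adjusted p = 0.0192), for Dlk1, by 2.26 (SE 0.46, adjusted p = 0.00609), for Ndn, by 1.74 (SE 0.47, adjusted p = 0.0268), and for Cdkn1c, by 1.22 (SE 0.30, adjusted p = 0.0185). These were 5 of 9 genes, against 5.26% of all genes called in that direction and 4.36% in the other. Without D16 replicate 2 only Dlk1 was called, and H19 and Dlk1 without 22.5 dpp replicate 1. The Ndn call was lost without any of 9 libraries (adjusted p up to 0.0785). From D16 to D30 the effect rose for Peg3, by 2.08 (SE 0.49, adjusted p = 0.00702), and fell by 2.80 for Cdkn1c (SE 0.30, adjusted p = 1.39e-05), 1 of 9 genes each way, against 11.5% of all genes called higher and 8.63% lower. The Peg3 call was lost without D16 replicate 1 (adjusted p = 0.0524). On somatic scaling Cdkn1c and Ndn were not called from D4 to D16, with 0.55 (adjusted p = 0.206) and 1.09 (adjusted p = 0.103), nor Peg3 from D16 to D30, with 1.06 (adjusted p = 0.0952).

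Over the time in culture the same 9 genes were tested against 6.5 dpp and from stage to stage. All 9 fitted changes were negative at each step. Their medians were -0.99, -0.84 and -0.52 in turn, beside -0.03, 0.03 and 0.01 over all genes. From 6.5 dpp to D4, 5 of 9 genes fell and none rose, against 10.1% of all genes called lower and 10.8% higher. Besides Dlk1 these were Cdkn1c, by 1.43 (SE 0.19, adjusted p = 4.13e-05, edgeR), Ndn, by 1.56 (SE 0.31, adjusted p = 0.00135), Igf2, by 1.35 (SE 0.39, adjusted p = 0.0198), and Peg3, by 0.99 (SE 0.29, adjusted p = 0.0205). The count was 3 without any single D4 library, where Peg3 and Igf2 were lost, and 2, Dlk1 and Cdkn1c, in fresh libraries only. Peg3 was also lost without 6.5 dpp CSF replicate 2 and Igf2 without 6.5 dpp CSF replicate 1. From D4 to D16, Dlk1, H19, Plagl1 and Grb10 fell, 4 of 9 genes against 5.48% of all genes called lower and 18.4% higher, and the count was 2 without D16 replicate 1. From D16 to D30 Dlk1 was the only one called, 1 of 9 against 0.332% of all genes called lower and 1.46% higher, and the count was 2 without 22.5 dpp replicate 2 or D30 fresh replicate 3. In a fit of these 2 groups alone Dlk1 was not called (-2.40, adjusted p = 0.186).

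The ratio of each gene to Mest needs no scaling between libraries. It was chosen after the values were seen and set side by side for the 3 D4 libraries and the 6 later culture libraries. All 9 ratios were lower in each of the 6 later libraries than in any D4 library, against 16.9% of all genes, while 20.7% were higher in each. The mean log2 ratio went from -1.32 to -6.46 for Dlk1, from 3.62 to -0.35 for H19, from 0.80 to -1.80 for Plagl1 and from 0.51 to -0.35 for Ndn. The ratios share the values of Mest and are a description, with no test. The level of Mest in culture was known when it was chosen, so the count of lower ratios supports nothing about the 9 genes.

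**Figure D3:**
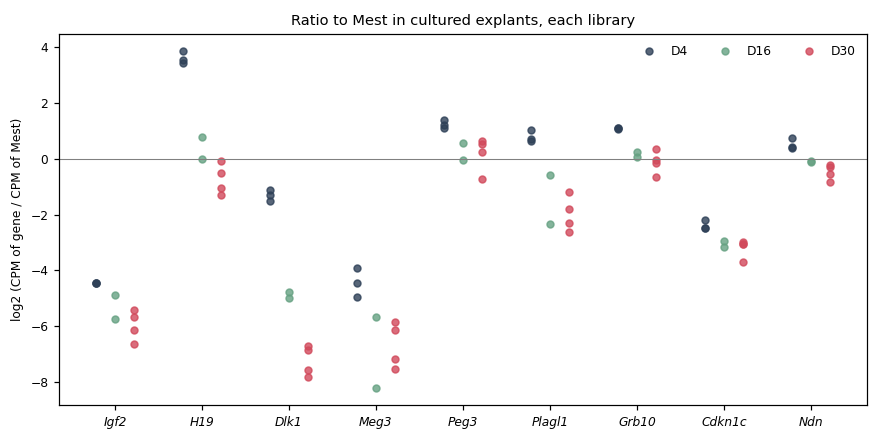
Log2 ratio of the CPM of each gene to that of Mest in each cultured library, with D4, D16 and D30 in separate colours and a line at equal levels. The D16 and D30 points lie below the D4 points for all 9 genes, from a mean difference of -0.77 for Cdkn1c to -5.14 for Dlk1.

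Freezing before culture or sampling called none of the 10 genes and none of all genes (0.00%) by edgeR, in a fit adjusted for stage. At an unadjusted p under 0.05 there were 1261 genes and 3 of the 10, and DESeq2 called 4 genes. Mest had a log2 fold change of 0.50 in CSF over fresh (95% interval 0.09 to 0.91, adjusted p = 0.648). The D30 CSF library held the most Mest and Dlk1 of its stage, 65.5 and 0.628 CPM, and the least Peg3 and Cdkn1c, 39.9 and 5.07 CPM.

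Other imprinted genes moved both ways. Of 43 listed, 39 passed the filter. Against the matched testis, D4 gave 3 higher and 6 lower genes of the 39 (4.92% and 3.18% of all genes), D16 gave 8 and 4 (14.0% and 11.8%), and D30 gave 18 and 10 (32.4% and 35.0%). Where a share is near that of all genes, it says nothing particular about these genes. Their median log2 fold changes were -0.04, 0.31 and 0.53, beside -0.01, -0.08 and -0.03 over all genes. Impact, a regulator of translation, was higher at D16, by 1.27 (SE 0.21, adjusted p = 0.000521, edgeR), and at D30, by 1.97. Kcnq1, a potassium channel gene, was higher at D16, by 2.31 (SE 0.40, adjusted p = 0.000663), but lower at D30, by -0.85 (SE 0.37, adjusted p = 0.0481). Inpp5f, an inositol phosphatase gene, was higher at D30, by 2.09 (SE 0.22, adjusted p = 5.29e-07). Lower were Kcnq1ot1, the noncoding RNA of the domain that holds Cdkn1c, by -1.38, and Trappc9, by -1.10, at D16, and Mirg, by -2.60, and Rasgrf1, by -3.26, at D30.

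Within the neighbourhoods of the 10 genes, Zim1, next to Peg3, averaged 106 CPM at 10.5 dpp and 1.46 CPM at 22.5 dpp in vivo, and over the culture stages 32.5, 4.70 and 1.54 CPM. It fell by 2.75 from D4 to D16 on the log2 scale (adjusted p = 0.000226). The mean ratio of Peg3 to Zim1 counts was 4.34 at D4 and 46.4 at D30. Zim1 was named after its values were seen. Usp29, which shares the Peg3 promoter region, averaged 2.66 CPM at 10.5 dpp and 1.25 CPM at D16. Magel2 and Mkrn3, neighbours of Ndn, differed from each other: Magel2 fell by 2.38 from D4 to D16 on the log2 scale (adjusted p = 0.0051), whereas Mkrn3 averaged 8.70, 6.58 and 7.43 CPM over the 3 culture stages. Magel2 was near the floor, averaging 0.578 CPM at D4, with 0.0754 and 0.131 CPM in the D16 libraries, so its change is a coarse value. Phlda2, a growth restraining gene beside Cdkn1c, fell from 6.5 dpp to D4 by 2.37 (adjusted p = 0.000142). Igf2r, the receptor that clears Igf2, averaged 181, 89.6 and 73.0 CPM in culture and was higher at D30 than at 36.5 dpp by 1.56 (adjusted p = 0.0038). Rtl1 had no count in any of these libraries.

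**Figure D4:**
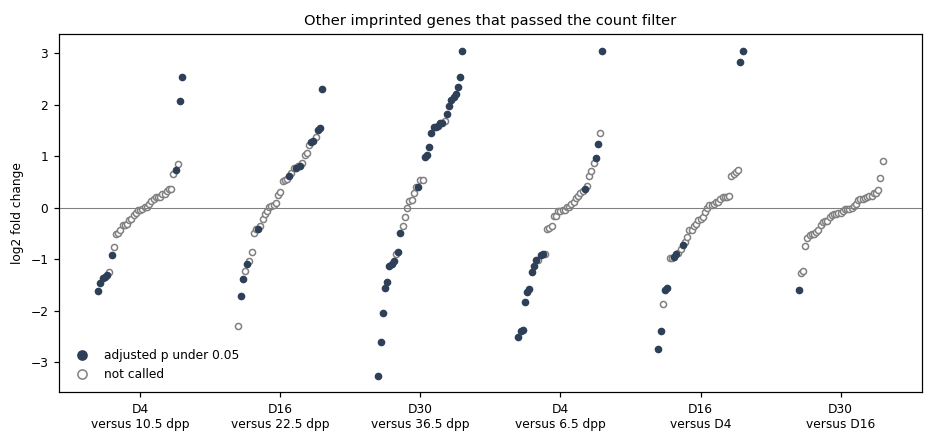
Fitted log2 fold changes of the 39 other imprinted genes that passed the filter, sorted within each of 6 comparisons; filled points have adjusted p under 0.05. At D30 against 36.5 dpp, 18 filled points lie above 0 and 10 below it, and from D16 to D30 a single gene, Zim1, is filled.

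Of 15 growth partners, mostly genes of insulin-like growth factor signalling and the cell cycle, D16 gave 3 higher and 1 lower gene against 22.5 dpp, and D30 gave 10 and 2 against 36.5 dpp, beside 14.0%, 11.8%, 32.4% and 35.0% of all genes. Their median log2 fold changes were 0.14 and 1.15. Ccnd2, a D-type cyclin, was higher at D16 by 1.49 (SE 0.33, adjusted p = 0.00453, edgeR) and Igf1 by 0.79 (SE 0.26, adjusted p = 0.0363). At D30 Cdk4 was higher by 1.67 and E2f3 by 1.94. Igf2bp3, an RNA-binding protein of fetal tissues, was lower at D16 by -1.27 and at D30 by -2.93, and Igf2bp1 was lower at D30 by -0.89. From D4 to D16 only 2 of the 15 changed, both lower: Gpc3, a glypican that holds back growth, by -2.35, and Igf2bp2, by -1.04, named because the count was small.

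Among 11 genes that set or keep imprints, D16 gave no higher and 3 lower genes against 22.5 dpp, and D30 gave 5 and 4 against 36.5 dpp, beside the same shares of all genes and with median log2 fold changes of -0.21 and -0.37. Trim28, a corepressor that guards imprints, was lower at D16 by -0.69 (SE 0.22, adjusted p = 0.0326, edgeR), and Dppa3, a maternal factor, by -2.14 from 0.29 CPM at 22.5 dpp. At D30 the de novo DNA methyltransferases Dnmt3a and Dnmt3b were higher by 2.20 and 1.61. Dnmt3l, their cofactor in germ cells, was lower by -3.29 and Zfp57, a zinc finger protein that binds methylated imprints, by -2.42. From D4 to D16 Dnmt3b alone was called, lower by -0.88. The lists and their calls rest on the usual scaling, and the share of all calls that were higher changed with the scaling as given above.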

How the data were processed

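Whole testes and cultured explants were profiled by polyA-selected RNA sequencing (single-end, 50 nt). The deposited table holds unnormalized read counts by gene, made by the authors with STAR 2.7.3a on GRCm38 and HTSeq 0.12.4 in intersection-nonempty mode; these versions are also in the submitters' processing notes, and the strand setting is not given in the sources used here. Of 27466 NCBI gene identifiers, 27373 matched the GRCm38.p6 RefSeq table. Groups came from the sample labels, and nothing in the labels ties a library to its animals, so p-values measure the spread between libraries. Levels are CPM on the library total. Differences came from 1 fit of 7 stages in edgeR 4.0.16 (R 4.3.3) with TMM factors, filterByExpr by stage, quasi-likelihood tests and Benjamini-Hochberg adjustment over 19255 genes, called at adjusted p under 0.05. Frozen libraries were grouped with fresh ones, and the 6.5 dpp fresh columns 1 (unlike its group) and 3 (a copy) were left out. Mest, chosen from these values, was tested for freezing only. The test was checked on simulated counts. DESeq2 1.42.0, other scalings, filters and libraries were alternatives. The text names all 10 members, the 10 genes most correlated with Mest and 3 for another member, and of each list the 2 called genes of lowest p per direction at D16 and D30, with fixed neighbours. Members, lists and tests were chosen with earlier results of these data known.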

Additional observations from a re-analysis of the deposited data

Results flagged for a closer look

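The effect of culture over the age-matched testis differed between time points for several of the imprinted growth genes, by edgeR's test of the difference itself. This difference also holds the change in vivo between the matched ages, which was known when the genes were chosen. It therefore supports nothing about the genes as a set. Between D4 and D16 the log2 effect rose by 2.48 for H19, 2.54 for Igf2, 2.26 for Dlk1, 1.74 for Ndn and 1.22 for Cdkn1c. Between D16 and D30 it changed by -2.80 for Cdkn1c and by 2.08 for Peg3. With libraries scaled on the somatic genes, Ndn and Cdkn1c (D4 to D16) and Peg3 (D16 to D30) were not called. No library of the 6.5 dpp or D30 groups of 4 stood apart from its group in any member by Dixon's criterion, in 20 groups examined, of which chance would mark about 1. With 4 values a group the criterion has little power. It did not mark 6.5 dpp CSF replicate 3, which held fewer long transcripts than its group.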

How the results depend on the processing

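Of 1288 alternative values of 43 fitted member changes, 1157 kept direction and, where tested, side of the threshold, 97 kept direction without the call, 17 gained one, 12 changed sign and 5 without a test moved. The sign changes were Mest at D4 against 10.5 dpp on library size alone (-0.0334), and at D30 against 36.5 dpp on somatic scaling Igf2 (-0.41), Dlk1 (-1.46) and Grb10 (-1.60), Dlk1 in fresh libraries only (-0.0349), Grb10 with RLE factors (-0.17) and DESeq2 (-0.17), and, over the libraries left out in turn, Dlk1 (-0.38 to 1.24), Grb10 (-0.11 to 0.30) and Meg3 (-1.53 to 1.05). Counts of called members under each library left out ran from 0 to 3 at D4 against 10.5 dpp, 1 to 5 at D16 against 22.5 dpp, 4 to 6 at D30 against 36.5 dpp, 3 to 7 from 6.5 dpp to D4, 2 to 6 from D4 to D16, 1 to 2 from D16 to D30, 1 to 6 and 1 to 2 for the differences of effects, and 4 to 8 for members lower at 10.5 than at 6.5 dpp. Keeping the 6.5 dpp fresh replicate 1 column gave 0 (D4 against 10.5 dpp), 1 (D16 against 22.5 dpp), 0 (6.5 dpp to D4), 1 (D4 to D16), 0 (D16 to D30), 0 (difference D16 minus D4) and 0 (10.5 against 6.5 dpp in vivo). In fits of the compared groups alone they were 8 at D4 against 10.5 dpp, 1 at D16 against 22.5 dpp and 0 from D16 to D30. Somatic scaling gave 2 at D16 against 22.5 dpp, 2 from D16 to D30, 3 for the difference D16 minus D4 and 4 at 36.5 against 22.5 dpp in vivo. Fresh libraries alone gave 2 from 6.5 dpp to D4 and 8 at 10.5 against 6.5 dpp in vivo, library size alone 4 for the difference D30 minus D16, and DESeq2 2 from D16 to D30. The study's stricter thresholds (log2 fold change of 2 or more either way, adjusted p up to 0.001) gave 0 at D4 against 10.5 dpp, 1 at D16 against 22.5 dpp, 0 from 6.5 dpp to D4, 2 from D4 to D16, 0 from D16 to D30, and 0 and 1 for the differences. The cause of these shifts was not tested, except that stricter thresholds call fewer genes by construction. The share of all calls that were higher also moved by over 10 points on somatic scaling from D4 to D16 (77.0% to 96.1%) and from D16 to D30 (81.4% to 61.7%), for the differences (54.7% to 9.15% and 57.0% to 3.8%), on library size alone at D4 against 10.5 dpp (60.7% to 50.1%) and for the differences (73.2% and 82.1%), and with RLE factors at D16 against 22.5 dpp (43.9%) and for the difference D30 minus D16 (43.2%).

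Replicate numbers were not taken as pairs, since not every pair correlated over 0.1. The deviations of same-numbered libraries from the group means correlated from -0.008 to 0.203 between D4 and 10.5 dpp (3 pairs), 0.525 to 0.661 between D16 and 22.5 dpp, -0.472 to -0.226 between D30 and 36.5 dpp, -0.094 to 0.011 between D16 and D4 and -0.564 to 0.375 between D30 and D16 (2 pairs each), and 1 of the 3 D4 libraries correlated best with its own number. A replicate block gave 1 called member at D4 against 10.5 dpp in place of 2, and changed no other count of called members. TMM factors for the in vivo levels were added after seeing the data. Depth limits Igf2, Dlk1 and Meg3, which had under 20 reads in some libraries, to coarse values.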

Other observations

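Each of the other members had its own closest genes over the 21 libraries. Peg3 was most like Met, the hepatocyte growth factor receptor (r = 0.99), Klf8 and Eml1. Ndn was most like Stoml2 (0.991) and Mdh2 (0.987), genes of mitochondrial proteins, and Arxes1. Dlk1 was nearest to AW551984 (0.985) and the glypican Gpc3 (0.981), which averaged 138 CPM at 10.5 dpp, 11.5 CPM at 22.5 dpp and 76.8, 14.5 and 7.72 CPM at D4, D16 and D30. Igf2 was nearest to the signalling gene Wnt5a (0.972) and the matrix genes Fbln2 and Lama3, and H19 to Cadm4, Sec24d and Papss1. Meg3 was nearest to Zfat (0.958), Plagl1 to Ptgfrn (0.988) and Grb10 to Lvrn (0.968). The libraries fall into 7 stages, so these values mostly reflect stage means.

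Markers of the main testis cells were present in culture, with shifts. Sertoli cell markers summed to 5931 to 6257 CPM at 10.5 dpp and 8428 to 9200 CPM at D4, and to 736 to 949 CPM at 36.5 dpp and 5852 to 9472 CPM at D30. The difference at D4 was that of Clu, at 3728 and 6387 CPM, while Amh was at 369 and 228 CPM, Gata4 at 329 and 280 CPM and Sox9 at 186 and 201 CPM. Leydig cell markers summed to 988 to 1144 CPM at 10.5 dpp and 291 to 509 CPM at D4. Endothelial markers were at 167 to 189 CPM at 10.5 dpp and 215 to 235 CPM at D4, and macrophage markers at 41.8 to 54.7 CPM and 9.31 to 11.9 CPM. Later, macrophage markers were at 58.3 to 80.9 CPM at 22.5 dpp and 54.5 to 62.9 CPM at D16. They were at 21.8 to 24.2 CPM at 36.5 dpp and 63.3 to 101 CPM at D30. Between these last groups, Leydig cell markers were at 1549 to 1925 and 317 to 571 CPM, and endothelial markers at 14.0 to 15.1 and 128 to 171 CPM. Their part in the values of the imprinted genes was not tested.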
